A study of Mus musculus with 4 samples.

Results

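The genes described here are 10 transcripts that dendritic cells (DCs) carry together once they mature and become able to leave a tissue: Ccr7, Fscn1, Socs2, Il4i1, Cacnb3, Nudt17, Apol7c, Tmem123, Samsn1 and Marcksl1. They were taken by symbol from a count table of 46078 mouse genes, in which each symbol matched 1 row, and all 10 passed the filter on low counts that left 14995 genes tested. RNA came from 4 libraries of mice that had been given EL4-Flt3 tumour cells 10 days earlier. The 2 control libraries (Ctrl) came from mice of genotype CD11c-cre. The other 2 (Il33flx) came from mice of genotype CD11c-cre-Il33flx/flx, whose Il33 alleles can be removed by Cre, so every animal carried the Cre transgene and the tumour cells. Cre under the CD11c promoter acts in DCs and also in some macrophages and other CD11c-expressing cells. Spleen and mesenteric lymph node were the source of the sorted cells, which were CD45+, CD64-, CD11b+, MHCII+ and CD103+, and the labels give neither the age of the animals nor whether a library is 1 animal or a pool, so p-values measure only the spread between these libraries.

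A DC in tissue takes up antigen, and on maturation it stops doing so, displays what it has gathered and moves to the T cell zone of a lymph node. CCR7 is the chemokine receptor that directs this movement towards CCL19 and CCL21, and fascin, encoded by Fscn1, bundles the actin filaments of the long processes that mature DCs extend. The programme runs in DCs of several subsets, during homeostatic maturation as well as after infection, and NF-kB factors such as RelB take part in it. Ccr7 is also made by naive T cells and by B cells.

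Libraries held 67707682 to 81217828 counts in genes. Il33 itself was counted 4 and 8 times in the Ctrl libraries and 4 and 0 times in the Il33flx libraries, where a count of 0 allows up to 0.0429 CPM (counts scaled to the same total in each library), so its level does not check the genotype labels. Ctrl 1 stood apart from the other libraries across genes: its log2 CPM correlated with theirs at 0.969 to 0.970 against 0.979 to 0.983 among the other 3, as a description over genes that are not independent. Counts of mitochondrial genes made up 0.0635% of Ctrl 1 and 0.112% to 0.205% of the others. Values of the 10 genes and list medians are therefore also given from a fit without Ctrl 1. The DC identity of the sort was visible in H2-Ab1, which encodes an MHC class II chain, at 33060 to 42775 CPM, in Flt3, the receptor of a DC growth factor, at 678 to 894 CPM, and in Itgae, which encodes CD103, at 56.8 to 116 CPM, and Fcgr1, which encodes the excluded CD64, read 3.66 to 5.50 CPM.

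All 10 genes were read in every library. Ccr7 ranked 58th in Ctrl 1, 126th in Ctrl 2, 118th in Il33flx 1 and 149th in Il33flx 2 among 21519 protein-coding genes ordered by RPKM, which is CPM divided by the kilobases of annotated exon. By median RPKM over the libraries the order was Ccr7 at 244, Tmem123 at 101, Apol7c at 79.0, Marcksl1 at 63.3, Il4i1 at 49.4, Fscn1 at 30.4, Cacnb3 at 15.0, Samsn1 at 9.41, Nudt17 at 7.69 and Socs2 at 0.918. The ranges of Ccr7 (210 to 505 RPKM) and of Socs2 (0.863 to 1.36 RPKM) overlapped with no other gene of the set. From Tmem123 to Cacnb3 each gene overlapped its neighbour in that order, as did Samsn1 and Nudt17, while the ranges of Cacnb3 (13.3 to 34.1 RPKM) and Samsn1 (6.30 to 9.85 RPKM) lay apart. The long annotated exon of Socs2, 9531 bases against 1605 bases in Marcksl1, enters its low value per length.

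RefSeq promoter windows of build GRCm38.p6, 250 bases before to 50 after a gene's start, were found for 8 of the 10 genes, with 10 windows in all. They were searched on both strands for 6 short motifs that are bound by factors active in DCs or the basal machinery: kappaB by its consensus, CRE (TGACGTCA), AP-1 (TGANTCA), a PU.1-type ETS core (GAGGAA), an ISRE-type motif by its consensus and a TATA box (TATAAA). Fscn1 and Apol7c are shown because theirs were the windows with a match to a motif of 8 or more letters, and the capitals mark every match in the 250 bases before the start.
Fscn1 (chr5:142960105-142960354, plus strand): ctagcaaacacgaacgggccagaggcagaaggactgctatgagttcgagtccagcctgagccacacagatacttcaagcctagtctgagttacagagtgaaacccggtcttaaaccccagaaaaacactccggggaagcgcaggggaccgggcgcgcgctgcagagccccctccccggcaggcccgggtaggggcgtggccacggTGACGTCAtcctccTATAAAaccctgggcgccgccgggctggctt
Apol7c (chr15:77533316-77533565, minus strand): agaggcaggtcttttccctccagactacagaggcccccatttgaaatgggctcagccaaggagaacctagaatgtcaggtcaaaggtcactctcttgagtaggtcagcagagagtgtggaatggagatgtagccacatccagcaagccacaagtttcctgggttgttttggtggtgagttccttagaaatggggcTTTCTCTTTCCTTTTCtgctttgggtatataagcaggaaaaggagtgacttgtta
The Fscn1 stretch holds CRE, 45 bases before the start, and TATAAA, 31 bases before it, and lies upstream of the gene except for its last bases, which GENCODE places in the first exon. CRE is a site of the CREB family of cyclic AMP-responsive factors, and 1.79% of 32851 windows of this length held it, while 13.6% held TATAAA. In the Apol7c stretch a pair of overlapping ISRE-type matches on the opposite strand starts 55 and 49 bases before the start, a motif of interferon regulatory factors that 3.44% of windows held. The ETS core was matched in Marcksl1, Il4i1 and Samsn1 and in 28.3% of windows. No window of the set held the kappaB consensus (4.51% of windows) or the AP-1 motif (7.81%), which says only that these letters are not in these windows. A match describes the sequence and is no evidence of binding.

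The main comparison asked whether the programme differed between DCs of Il33flx and Ctrl mice. None of the 10 genes was called at an adjusted p below 0.05 by edgeR's quasi-likelihood test (0 of 10, adjusted p = 0.995 for 9 of them and 1 for Tmem123), and 0 of 10 had an unadjusted p under 0.05. Over all 14995 genes the same test called 0.00% lower and 0.00667% higher in Il33flx, and 1.24% and 2.02% at an unadjusted p under 0.05. DESeq2 also called 0 of 10, against 0.0849% of genes called lower and 0.123% higher, and put 2 of the 10, Ccr7 and Fscn1, under 0.05 unadjusted, as it did 1.06% of genes in the lower and 1.40% in the higher direction. In sorted bulk RNA, fewer mature cells and less of these transcripts per cell cannot be told apart. The log2 fold change was below 0 for 9 of the 10 genes with a median of -0.48, beside 7224 of 14995 genes below 0 and a median of 0.01 over all genes. Without Ctrl 1 it was below 0 for 3 of the 10, and the median was 0.11. In that fit 0 of the 10 genes were called or had an unadjusted p under 0.05 (edgeR), while 0.107% of genes were called lower and 0.120% higher and 2.64% and 3.03% were under 0.05 unadjusted. Without Ctrl 2 edgeR again called 0 of the 10 (0.00% of genes in each direction), but 8 genes were lower and Samsn1 higher at an unadjusted p under 0.05, beside 6.57% of genes lower and 14.0% higher. Without Il33flx 1 only Fscn1 was under 0.05 unadjusted, beside 1.30% of genes lower and 1.05% higher, and 0 of the 10 were called against 0.120% and 0.0632%. With the replicate number as a block, Ccr7 and Fscn1 were, beside 1.17% and 2.42%, and 0 of the 10 were called against 0.0934% and 0.127%.

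**Figure D1:**
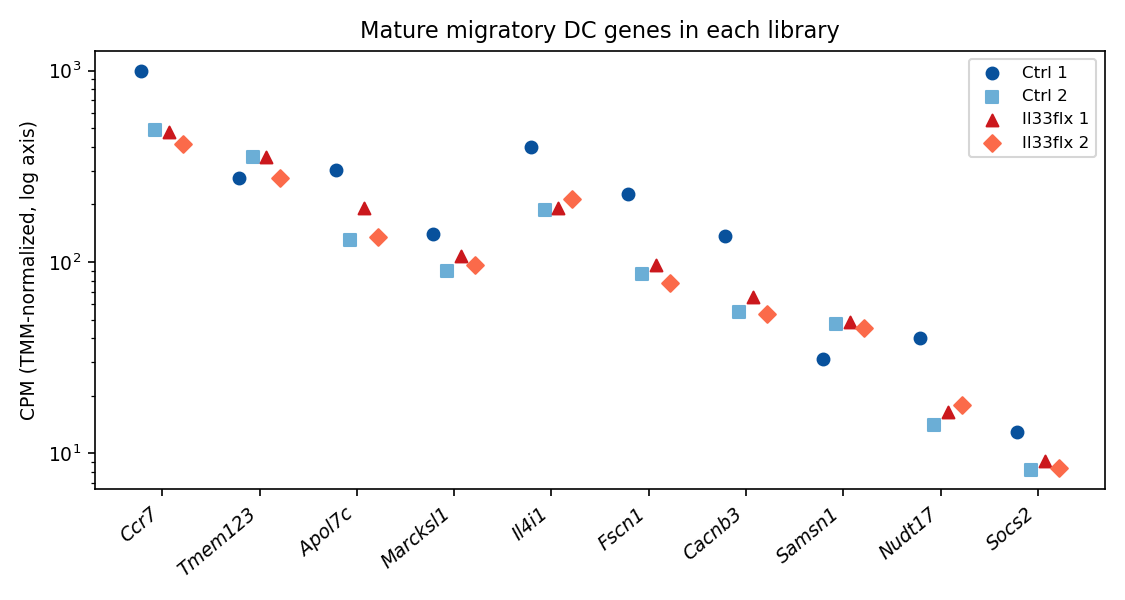
TMM-normalized CPM (log axis) of the 10 genes in each of the 4 libraries, ordered from left to right by median RPKM, with 1 point per library. Ctrl 1 is the highest point for 8 genes and the lowest for Tmem123 and Samsn1. Tmem123 has a pair of high and a pair of low points, 1 from each group.

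Ccr7 (ENSMUSG00000037944, chromosome 11, 99144196 to 99155077 on the minus strand of GRCm38) read 999 CPM in Ctrl 1, 489 CPM in Ctrl 2, 475 CPM in Il33flx 1 and 415 CPM in Il33flx 2. It was the only gene of the 10 whose groups did not overlap, both Il33flx libraries lying below both Ctrl libraries, as they did for 14.9% of all genes tested. Ctrl 2 and Il33flx 1 were nearly level and Ctrl 1 was high. On the log2 scale the groups differed by -0.74 ± 0.33 SE, and the 95% interval ran from -1.54 to 0.06 (adjusted p = 0.995, edgeR). It was -0.13 ± 0.15 SE without Ctrl 1 (adjusted p = 1, edgeR) and -1.17 ± 0.14 SE without Ctrl 2 (adjusted p = 0.119, edgeR). The authors' deposited table gave -0.76 for Ccr7, with an unadjusted p of 0.0361 and an adjusted p of 1. Of its 15001 genes that table called 0.133% lower and 0.207% higher, and held 1.52% lower and 1.79% higher at an unadjusted p under 0.05.

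Fscn1 (chromosome 5, 142960343 to 142973185) read 227 CPM in Ctrl 1, 86.1 CPM in Ctrl 2, 96.7 CPM in Il33flx 1 and 78.1 CPM in Il33flx 2. Ctrl 1 alone was high, and Ctrl 2 lay between the Il33flx libraries. Its log2 fold change was the most negative of the set at -0.84 ± 0.43 SE, and its interval ran from -1.87 to 0.19 (adjusted p = 0.995, edgeR), and it was 0.03 ± 0.18 SE without Ctrl 1. In the authors' deposited table it was -0.87, with an unadjusted p of 0.0459.

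Marcksl1, the other cytoskeletal gene, encodes a membrane-bound protein of the MARCKS family that regulates actin. It had 140 CPM in Ctrl 1, 90.1 CPM in Ctrl 2, 107 CPM in Il33flx 1 and 96.2 CPM in Il33flx 2, so that Ctrl 2 was the lowest library and the groups overlapped. The log2 fold change was -0.18 ± 0.25 SE, and 0.18 without Ctrl 1. Marcks, its paralog and the founding member of the family, read 38.5 CPM in Ctrl 1, 110 CPM in Ctrl 2, 80.6 CPM in Il33flx 1 and 59.8 CPM in Il33flx 2. The Ctrl 1 level was thus the highest of the 4 for one MARCKS gene and the lowest for the other.

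Among the signalling and enzyme genes, Il4i1, which encodes a secreted oxidase of aromatic amino acids, read 400 CPM in Ctrl 1, 187 CPM in Ctrl 2, 191 CPM in Il33flx 1 and 212 CPM in Il33flx 2. Its Ctrl 2 library was the lowest of the 4. The log2 fold change was -0.54 ± 0.35 SE with all libraries and 0.12 ± 0.16 SE without Ctrl 1. The Il4i1 count is uncertain, because 83.9% of its annotated exon bases are also exon of Tbc1d17 on the opposite strand and 97 bases are shared with Nup62, and the strand setting of the counting was not given. Tbc1d17 had 5721 counts in Ctrl 1 and 3888 to 4296 in the other libraries, whereas Il4i1 had 30715 and 13475 to 15042.

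Cacnb3, the beta subunit of a voltage-gated calcium channel, read 137 CPM in Ctrl 1, 54.8 CPM in Ctrl 2, 65.9 CPM in Il33flx 1 and 53.4 CPM in Il33flx 2. The nudix hydrolase gene Nudt17 read 40.3 CPM in Ctrl 1, 14.1 CPM in Ctrl 2, 16.5 CPM in Il33flx 1 and 18.0 CPM in Il33flx 2, and had the largest ratio of Ctrl 1 to Ctrl 2 in the set, 2.87. Both genes were high in Ctrl 1 alone. Their log2 fold changes were -0.68 ± 0.41 SE for Cacnb3 and -0.66 ± 0.46 SE for Nudt17, and without Ctrl 1 they were 0.13 and 0.30. Socs2, a suppressor of cytokine signalling through JAK and STAT proteins, read 13.0 CPM in Ctrl 1, 8.23 CPM in Ctrl 2, 9.11 CPM in Il33flx 1 and 8.39 CPM in Il33flx 2. On the log2 scale Socs2 differed by -0.28 ± 0.30 SE, and by 0.10 ± 0.26 SE without Ctrl 1.

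Apol7c, a gene of the apolipoprotein L family, was the member that differed most between the Il33flx libraries, with a ratio of 1.42. It read 302 CPM in Ctrl 1, 130 CPM in Ctrl 2, 191 CPM in Il33flx 1 and 134 CPM in Il33flx 2. The log2 fold change was -0.41 ± 0.40 SE with all libraries and 0.34 ± 0.21 SE without Ctrl 1. Of its transcript stretches of 50 bases, 25.6% occur in another gene, among them Gm8221, Apol7a, Apol7e and Apol7b, so its count is uncertain. Of those relatives Apol7e read 0.522 to 1.09 CPM and Apol7a and Apol7b no more than 0.155 CPM, and the level of Gm8221 was not read.

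Tmem123 and Samsn1 were the genes of the set for which Ctrl 1 was the lowest library. Tmem123, which encodes the mucin-like membrane protein porimin, read 274 CPM in Ctrl 1, 355 CPM in Ctrl 2, 354 CPM in Il33flx 1 and 274 CPM in Il33flx 2. Each group held a high and a low library, and the log2 fold change was -0.0004 ± 0.22 SE, with bounds of -0.52 and 0.52, and -0.17 without Ctrl 1. Samsn1, an adaptor with SH3 and SAM domains, read 31.1 CPM in Ctrl 1, 47.7 CPM in Ctrl 2, 48.6 CPM in Il33flx 1 and 45.2 CPM in Il33flx 2, with Ctrl 1 low and the others level. Its log2 fold change was 0.25 ± 0.25 SE, the only one above 0, and it was -0.02 ± 0.18 SE without Ctrl 1.

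**Figure D2:**
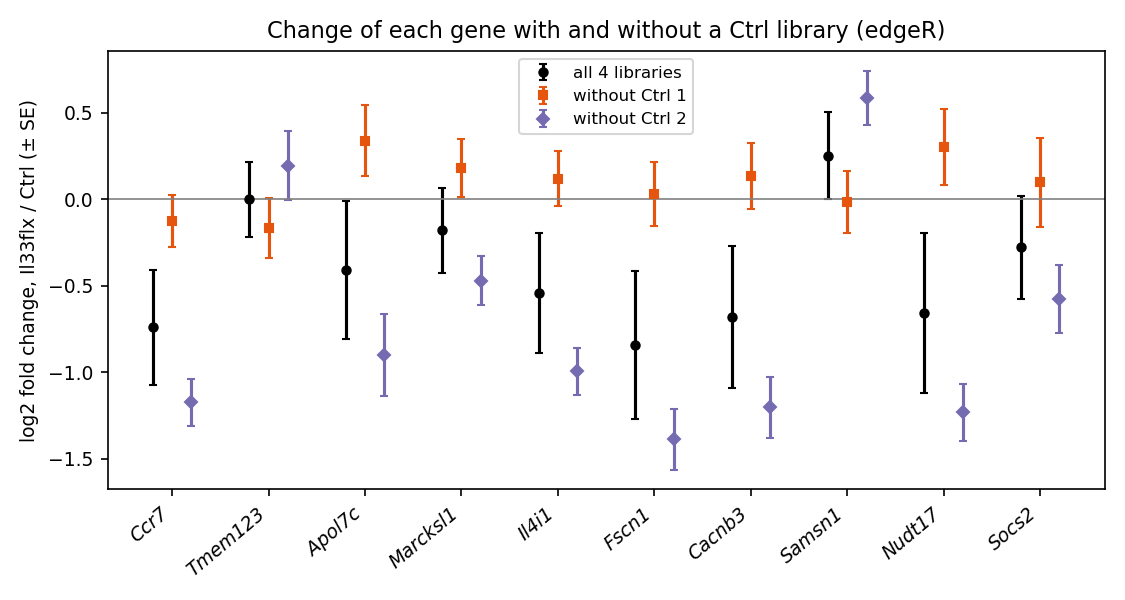
Log2 fold change of Il33flx over Ctrl with its standard error for each of the 10 genes, fitted with all 4 libraries, without Ctrl 1 and without Ctrl 2 (edgeR). With all libraries 9 genes lie below 0, and without Ctrl 1 the values run from -0.17 to 0.34.

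Ctrl 1 and Ctrl 2 differed in CPM by more than the group means did for 10 of the 10 genes. The share of all genes with this property was not counted, so it cannot be called particular to the set. Ctrl 1 was at least 1.5 times Ctrl 2 for 8 of the 10, where 11.6% of all genes tested were, and at least 2 times for 6 of the 10 against 5.84%. The exceptions were Samsn1, for which Ctrl 2 was at least 1.5 times Ctrl 1 (22.5% of all genes), and Tmem123, with a ratio of 0.771. Ctrl 1 was the highest of the 4 libraries for 8 genes, as it was for 34.2% of genes tested, and the lowest for the other 2 (36.0%). The Il33flx libraries were apart by at least 1.5 times for 0 of the 10, beside 19.4% of genes. Ctrl 1 and Ctrl 2 are 1 library each, so these ratios compare libraries and carry no test. The 10 genes were chosen with earlier results of these data known, so the shares beside them are a description only.

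Set against Ccr7 within the same library and per length, several genes kept a near-constant proportion while Ccr7 itself varied 2.41-fold between libraries. Fscn1 lay at 11.6% to 14.9% of the Ccr7 RPKM, Cacnb3 at 5.53% to 6.84% and Il4i1 at 18.5% to 24.8%. Nudt17 varied 1.51-fold relative to Ccr7, Apol7c 1.51-fold, Socs2 1.56-fold and Marcksl1 1.66-fold. Tmem123 was at 17.4% of Ccr7 in Ctrl 1 and 42.1% to 47.4% in the other libraries, and Samsn1 at 1.25% and 3.91% to 4.37%. These proportions are descriptions over 4 libraries.

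**Figure D3:**
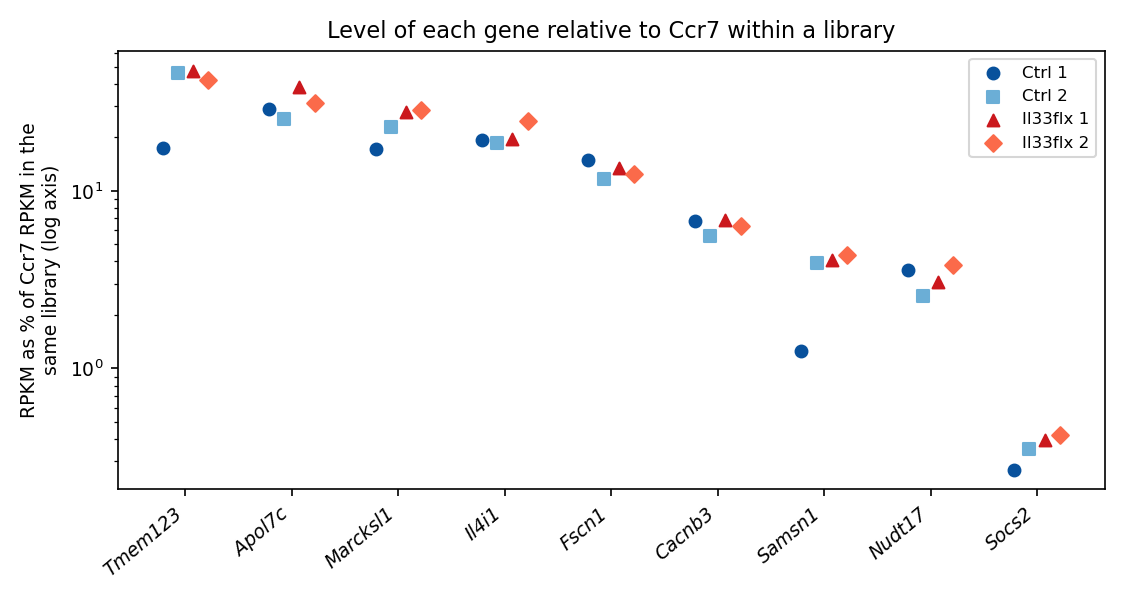
RPKM of 9 genes as a percentage of the Ccr7 RPKM in the same library (log axis), with 1 point per library. The points of Fscn1, Cacnb3 and Il4i1 lie close together, and Ctrl 1 is far below the other libraries for Tmem123 and Samsn1.

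Likeness to Ccr7 was measured as the Euclidean distance between log2 CPM profiles over the 4 libraries, each centred on its own mean, among 3762 other protein-coding genes of at least 50 CPM on average. The closest were Pfkfb3, an activator of glycolysis, the potassium-chloride cotransporter gene Slc12a7, the xanthine oxidoreductase gene Xdh, Bcl2l14, Itgae, the chemokine gene Ccl5, Gclc of glutathione synthesis and the chemokine gene Ccl22, at distances of 0.226 to 0.355. Pfkfb3 read 230 CPM in Ctrl 1, 121 CPM in Ctrl 2, 117 CPM in Il33flx 1 and 118 CPM in Il33flx 2. Ccl22 read 82.6, 34.8, 45.1 and 40.1 CPM in the same order of libraries. On this scale Cacnb3 stood at 0.244, Fscn1 at 0.274 and Il4i1 at 0.330, and each, set alone against the 3762 other genes, took rank 2, 2 and 4 in turn. Apol7c stood at rank 18, Nudt17 at 22, Socs2 at 40, Marcksl1 at 148, Tmem123 at 2924 and Samsn1 at 3346. The profile rests on 4 libraries, of which Ctrl 1 is the one that stands out for Ccr7.

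The wider maturation programme was read from 80 other genes in 6 lists, of which 78 were tested and 0 were called (edgeR). Over all genes 0.00% were called lower and 0.00667% higher. At an unadjusted p under 0.05 stood 1 of the 78, lower in Il33flx, near the share of 1.24% of all genes. It was Cdkn2b, a cell cycle inhibitor gene named here after its value was seen. Of the 78 genes 60 had a log2 fold change below 0, with a median of -0.13, and 9 were lower in Il33flx without overlap and 1 was higher, beside 14.9% and 15.4% of all genes. Without Ctrl 1 the median was 0.08. Ctrl 1 was at least 1.5 times Ctrl 2 for 31 of the 78 and was the highest library for 56 of them. Of all genes these held for 11.6% and 34.2%. By list, the medians without Ctrl 1 were -0.03 for migration, 0.12 for maturation, 0.16 for regulatory, 0.05 for type 2 and chemokine, 0.05 for NF-kB and 0.08 for the further mature DC genes.

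Migration genes were below 0 in 12 of 12 cases (median -0.18), with 0 called. Of these, 5 were lower without overlap, beside 14.9% of all genes. Without Ctrl 1, 8 of the 12 were below 0 and the median was -0.03. The actin-binding leukocyte protein gene Lsp1 read 3515 CPM in Ctrl 1, 2691 CPM in Ctrl 2, 2695 CPM in Il33flx 1 and 3133 CPM in Il33flx 2, and the adhesion ligand gene Icam1 read 653, 453, 438 and 406 CPM. The class I myosin gene Myo1g, the sheddase gene Adam8, the chemokine gene Cxcl16 and Swap70, which acts on Rac and actin, had log2 fold changes of -0.25, -0.37, -0.12 and -0.15. In Icam1, Adam8 and Swap70 the Il33flx libraries were below both Ctrl libraries, as they were in Tspan3 (-0.43) and Rhof (-0.50), which are named after their values were seen.

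Genes of costimulation and maturation did not share a direction: 5 of 11 were below 0 and the median was 0.02, with 0 called. Cd86, a ligand of the costimulatory receptor CD28, read 252 CPM in Ctrl 1, 458 CPM in Ctrl 2, 382 CPM in Il33flx 1 and 372 CPM in Il33flx 2, so that Ctrl 1 was the lowest library. Relb had the order of Ccr7 at its top, with 454 CPM in Ctrl 1 and 245 to 300 CPM in the others. The maturation marker gene Cd83 lay at 1084 to 1345 CPM and Cd40, the receptor for T cell help, at 73.3 to 117 CPM, both with overlapping groups. The ligand gene Icosl lay at 96.1 to 121 CPM, and Il12b, a subunit of the cytokines IL-12 and IL-23, at 18.8 to 25.3 CPM with both Il33flx libraries above both Ctrl libraries (log2 fold change 0.25 ± 0.21 SE). Il12b was the 1 gene of the 11 without overlap, beside 15.4% of all genes that were higher in this way.

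Regulatory genes had 9 of 12 below 0 (median -0.10) and the type 2 and chemokine genes 5 of 8 (median -0.25), with 0 called in either list and 0 genes without overlap. Over all genes 14.9% were lower and 15.4% higher without overlap. Aldh1a2, which makes retinoic acid, read 50.1 CPM in Ctrl 1, 16.9 CPM in Ctrl 2, 23.8 CPM in Il33flx 1 and 19.6 CPM in Il33flx 2. The checkpoint ligand gene Cd274 read 69.1, 44.7, 52.2 and 36.8 CPM. Among the type 2 genes, Tnfrsf4, which encodes the receptor OX40, read 38.8, 17.3, 19.6 and 17.2 CPM. The interleukin 4 receptor gene Il4ra went the other way between the groups, at 227 and 149 CPM in Ctrl against 251 and 218 CPM in the other group, a log2 difference of 0.32 ± 0.24 SE. Aldh1a2, Cd274, Tnfrsf4 and Ccl22 were each highest in Ctrl 1.

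NF-kB genes had 9 of 12 below 0 with a median of -0.07 and 0 called. The inhibitor gene Nfkbia and the subunit gene Nfkb1 lay at 347 to 476 CPM and 350 to 429 CPM with overlapping groups, and the adaptor gene Traf1 had 378 CPM in Ctrl 1 and 236 to 276 CPM elsewhere. Rela, a transactivating subunit gene, was lower in Il33flx without overlap at 163 and 171 CPM against 228 and 187 CPM, as was the inhibitor gene Nfkbib, named after its value was seen (log2 fold changes -0.31 and -0.21). These were 2 of the 12, near the 14.9% of all genes that were lower without overlap. Among further genes found with Ccr7 in mature DCs, 20 of 23 were below 0 with a median of -0.24. In that list Ctrl 1 was the highest library for 20 genes and at least 1.5 times Ctrl 2 for 12, beside 34.2% and 11.6% of all genes. Gyg, of glycogen synthesis and also named after its value was seen, and Cdkn2b were lower in Il33flx without overlap (log2 fold changes -0.07 and -1.07). They were 2 of the 23, beside the same 14.9% of all genes. Rogdi read 311 CPM in Ctrl 1 and 213 to 266 CPM in the others, the protease inhibitor gene Serpinb9 224 and 152 to 193 CPM, and Tbc1d4, a regulator of vesicle traffic, was lowest in Ctrl 1 at 251 CPM against 278 to 333 CPM.

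**Figure D4:**
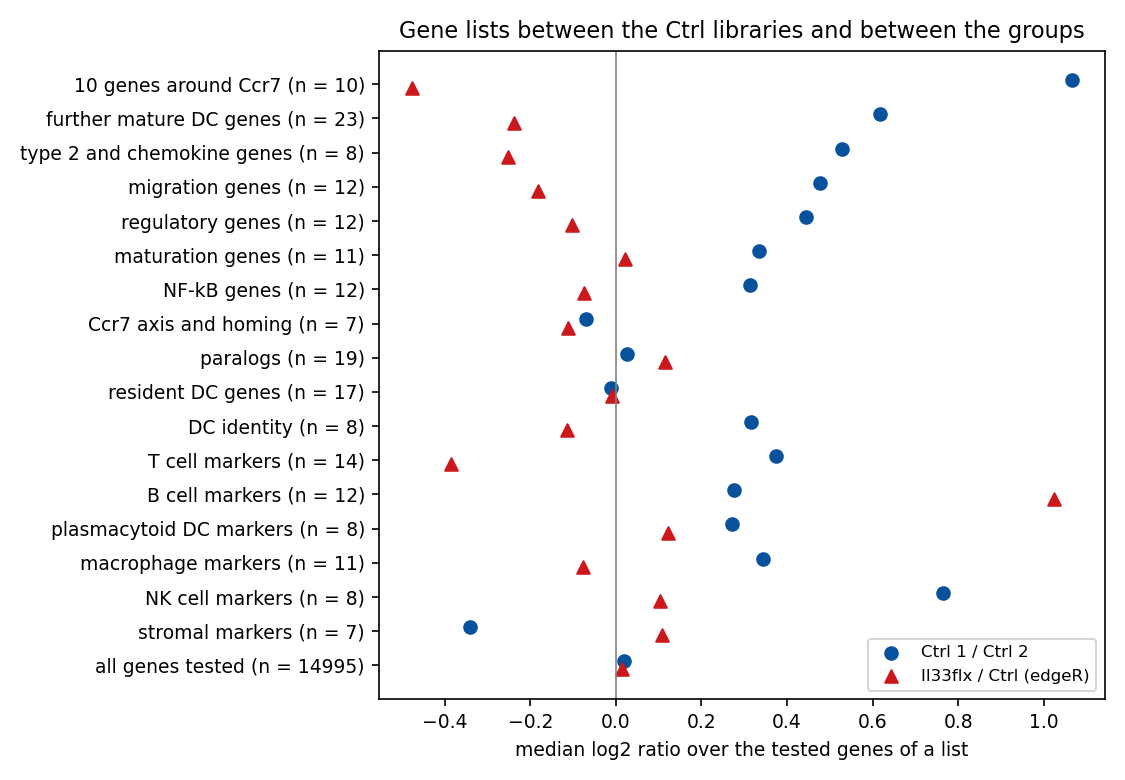
Median log2 ratio over the tested genes of each list, for Ctrl 1 over Ctrl 2 (circles) and for Il33flx over Ctrl (triangles, edgeR), with the number of genes tested. The 10 genes around Ccr7 have medians of 1.07 and -0.48, the further mature DC genes 0.62 and -0.24, T cell markers 0.37 and -0.39, B cell markers 0.28 and 1.02, NK cell markers 0.76 and 0.10, and all genes tested 0.02 and 0.01.

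The ligands of CCR7 had few counts in these sorted cells. Both symbols match 2 rows of the table, of which the row on an assembled chromosome was read, and copies of these genes make their counts uncertain. Ccl19 was counted 9 and 6 times in Ctrl and 5 and 1 times in Il33flx, and Ccl21a 19 and 7 times in Ctrl and 18 and 4 times in Il33flx. Other receptors that guide cells within or between lymphoid organs were measured beside Ccr7. The oxysterol receptor gene Gpr183 lay at 113 to 124 CPM, S1pr1, the exit receptor, at 13.7 to 17.2 CPM, Cxcr4 at 11.3 to 14.8 CPM and Cxcr5 at 4.40 to 5.84 CPM, and 0 of the 7 tested genes of this list were called.

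Paralogs of the 10 genes were measured as well. Fscn2 and Fscn3 had at most 0.241 CPM, Cacnb1 1.5 to 1.87 CPM, Cacnb2 1.45 to 3.56 CPM and Cacnb4 at most 0.227 CPM. Of the SOCS family, Socs3 read 29.4 to 40.5 CPM, Socs6 17.4 to 19.1 CPM, Socs4 9.06 to 13.5 CPM, Socs5 10.6 to 13.3 CPM, Socs7 6.63 to 10.9 CPM, Socs1 3.49 to 5.07 CPM and Cish 0.932 to 1.36 CPM. Sash3, a relative of Samsn1, was high at 307 to 415 CPM with Ctrl 1 on top, whereas Sash1 read 1.65 to 3.44 CPM. Apol10b had 13.7 to 21.5 CPM. The nudix genes Nudt19 and Nudt7 read 18.8 to 27.1 CPM and 1.64 to 4.53 CPM. Nudt7, a hydrolase of coenzyme A, was above both Ctrl libraries in both Il33flx libraries by 1.27 ± 0.33 SE on the log2 scale (unadjusted p = 0.0071, adjusted p = 0.995, edgeR), and 0 of 19 tested paralogs were called. Without overlap, 4 of the 19 were higher and 3 lower, beside 15.4% and 14.9% of all genes.

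Genes of conventional DC subsets had 9 of 17 below 0 (median -0.01), and Ctrl 1 was the highest library for 6 and the lowest for 7. This list does not separate resident from migratory DCs. It includes Itgae, which encodes the CD103 of the sort and was among the 8 genes closest to Ccr7. Xcr1, a receptor of type 1 DCs, read 506 CPM in Ctrl 1 against 798 to 841 CPM, while the transcription factor gene Irf8 was highest there at 4817 against 3346 to 3946 CPM. Of the 8 DC identity genes 8 were highest in Ctrl 1, and Itgax, whose promoter drives Cre, read 647 and 517 CPM in Ctrl and 359 and 407 CPM in Il33flx. Itgax was among the 2 of these 8 genes that were lower without overlap, beside 14.9% of all genes. For Itgax edgeR put the difference at -0.60 ± 0.19 SE on the log2 scale (unadjusted p = 0.0182, adjusted p = 0.995), so it was not called. Of all genes 1.24% were lower at an unadjusted p under 0.05.

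T cell markers were below 0 for 12 of 14 (median -0.39), with 0 called (edgeR). Ctrl 1 was the highest library for 12 of 14, beside 34.2% of all genes. For 6 both Il33flx libraries lay below both Ctrl libraries, beside 14.9% of all genes, and for 1 both lay above (15.4%). The summed level was 134 to 201 CPM in Ctrl and 117 to 132 CPM in Il33flx. No T cell marker was at 0 in any library, and the median was -0.02 without Ctrl 1. Per length, Lck read 9.43 to 21.3 RPKM, Trbc2 12.04 to 20.99 RPKM, Trac 7.46 to 13.3 RPKM and Cd3e 1.64 to 3.44 RPKM, where Ccr7 read 210 to 505 RPKM.

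B cell markers were above 0 for 10 of 12 (median 1.02), and for 10 both Il33flx libraries lay above both Ctrl libraries, beside 15.4% of all genes. In the fit of all 4 libraries, 7 of the 12 were under 0.05 unadjusted, all higher, beside 2.02% of all genes. In that fit 0 were called (edgeR). Without Ctrl 1 the median was 1.26. Cd79b, a signalling chain of the B cell antigen receptor, read 22.3 and 15.3 CPM in Ctrl against 32.5 and 30.5 CPM in Il33flx. Summed, the list had 143 to 168 CPM in Ctrl and 180 to 213 CPM in Il33flx, of which Cd22 gave 69.2 to 90.2 CPM in every library. None of the 12 was at 0 in any library.

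Plasmacytoid DC markers summed to 191 to 206 and 167 to 275 CPM (5 of 8 above 0), macrophage and monocyte markers to 458 to 551 and 472 to 562 CPM (8 of 11 below 0), NK cell markers to 38.0 to 44.9 and 47.1 to 47.2 CPM (5 of 8 above 0), and stromal markers to 59.4 to 62.3 and 55.7 to 71.8 CPM (4 of 7 tested above 0, with Pdpn at 0 in 3 libraries). Of the NK cell sums Klrd1 gave 3.96 CPM in Ctrl 1, 25.1 CPM in Ctrl 2, 23.3 CPM in Il33flx 1 and 24.0 CPM in Il33flx 2. Among the 8 NK cell markers Ctrl 1 was the lowest library for 2 and the highest for 3, beside 36.0% and 34.2% of all genes. Of the stromal sums Pecam1 gave 51.2 to 68.5 CPM, and each other stromal marker read at most 3.20 CPM, the value of Col3a1 in Ctrl 2. The part of T cell or B cell RNA in the Ccr7 level was not tested.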

How the data were processed

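Libraries of RNA from sorted CD103+ cells were prepared with a TruSeq mRNA kit, per the labels' protocols. Gene counts as deposited, whole numbers left unscaled by the authors, were the main values. The submitters' processing notes name Trimmomatic 0.39, STAR, HTSeq, DESeq2 and build GRCm38, and the sources used here do not give the annotation release or strand setting. Rows that name no gene were left out. They held 27.8% to 30.1% of the reads listed per library, mostly reads with more than 1 alignment (21.9% to 23.1%).

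The authors' deposited table of 15001 genes gives signal columns (counts divided by 1 size factor per library), log2 fold changes with their errors, a Wald score and p-values. Its values are printed only where it is named.

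The 4 libraries were fitted with edgeR 4.0.16 in R 4.3.3 (quasi-likelihood F test, filterByExpr, TMM, no covariate), with Benjamini-Hochberg adjustment over 14995 genes and a threshold of 0.05. SE was obtained from the fold change and its F statistic. DESeq2 1.42.0, other scalings and filters, a replicate block and leaving out each library were alternatives. No permutation test was run, since 2 libraries against 2 allow no two-sided p under 0.333. The procedure was tested on simulated counts. Exon lengths and overlaps came from GENCODE M21, which names 45229 of the 46078 rows. The limit for a count of 0 (3 counts) covers counting error only.

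The 10 genes and the lists were chosen with earlier results of these data known. Named were the 10 genes, up to 6 of the most abundant tested genes of each list, homing genes and paralogs of at least 1 CPM, and the 8 genes most like Ccr7. Not all genes that the rule took are printed.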

Additional observations from a re-analysis of the deposited data

How the results depend on the processing

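No gene of the 10 was called under any of the 10 alternatives run, where the lowest adjusted p was 0.119, without Ctrl 2. Over all genes, edgeR called 1 with all libraries, 0 with library size alone, 0 with no filter and 33 with the replicate block, DESeq2 called 49, and leaving out 1 library gave 0 to 36.

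Without Ctrl 1 the median of the 10 genes was 0.107 and that of the other mature DC genes 0.0798, and leaving out any 1 library gave medians of -0.948 to 0.107 and of -0.361 to 0.0798. The lowest value in these ranges and in those below came without Ctrl 2 and the highest without Ctrl 1, except for Samsn1, where they were the other way round, and Tmem123. The log2 fold change ran from -0.900 to 0.337 for Apol7c, -1.20 to 0.133 for Cacnb3, -1.39 to 0.030 for Fscn1, -0.995 to 0.117 for Il4i1, -0.470 to 0.181 for Marcksl1, -1.23 to 0.301 for Nudt17, -0.0153 to 0.585 for Samsn1 and -0.575 to 0.0963 for Socs2, so these 8 changed sign without Ctrl 1. Ccr7 stayed below 0, at -1.17 to -0.126. Tmem123, at 0 within its error, ran from -0.197 without Il33flx 1 to 0.200 without Il33flx 2 and was also above 0 without Ctrl 2 (0.193), with library size alone (0.0750), with a filter of 1 CPM in 2 or more libraries (0.0124) and with the replicate block (8.9e-06).

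The labels do not say whether replicate numbers pair the libraries. The difference of replicates 1 and 2 correlated at -0.03 between groups across genes. This is 1 difference per group, so it cannot settle whether the libraries were paired. With the replicate block the median of the 10 genes was -0.37. A fit that leaves 1 library in a group assumes that it varies like the other group. With 2 libraries a group, the interval of Ccr7 spans a log2 change of -1.54 to 0.06 and that of Tmem123 one of -0.52 to 0.52, and the width differs between genes.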
